A study of Mus musculus with 6 samples.

Results

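Genes of macrophages and their myeloid relatives were followed in whole lungs of E18.5 mouse embryos, a stage close to birth. The set holds 37 genes, fixed by name and not by any measured value, and all 37 have at least 1 probe set that names that gene alone, out of 18193 genes measured in the series. Where a gene had several probe sets, the one brightest on average was read, so 37 of 68 probe sets carry the values below. The study compared 3 arrays titled GATA6 KO (KO 1, KO 2 and KO 3), called GATA6 null in the series' own design, with 3 titled wild-type (WT 1, WT 2 and WT 3). The allele, any Cre driver, the strain, the sex and the litter are not given in the sources used here, and nothing says that an array stands for a single embryo, so the spread between arrays may be technical in part. In RNA of a whole lung, fewer macrophages and less RNA per macrophage cannot be told apart.

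Macrophages enter the lung before birth, first from the yolk sac and then as monocytes from the fetal liver. They depend on CSF1 acting through its receptor CSF1R, and on the transcription factor PU.1, the product of Spi1. After birth, GM-CSF turns fetal monocytes into alveolar macrophages, which clear surfactant, and the genes of that mature state appear late. GATA6, the factor named in the labels, is known in the lung epithelium and, in mice, as the factor that sets the identity of resident peritoneal macrophages.

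Levels are log2 of the deposited intensity plus 16, and differences are KO minus WT on that scale, fitted for all genes at once with limma and adjusted by Benjamini-Hochberg over all 18193. Gata6 itself read 11.58, 11.39 and 11.19 in KO 1 to 3 and 11.12, 10.26 and 10.42 in WT 1 to 3. It was thus higher in every KO-labelled array than in any WT-labelled one, by 0.79 (SE 0.24, adjusted p = 0.964 in limma). Whether its probe sets fall inside the deletion is not known here, so this checks neither the deletion nor the labels, and every direction below is between arrays labelled KO and arrays labelled WT. On the first principal component of all genes, with 45.1% of the variance, KO 2, KO 3 and WT 1 lay on one side (16.8, 29.9 and 23.1) and KO 1, WT 2 and WT 3 on the other (-32.8, -14.1 and -23.0). All KO arrays and WT 3 were washed on fluidics station 2, WT 1 and WT 2 on station 1, and the WT arrays were scanned first, so that scan order and label cannot be told apart. Lung markers were bright in all arrays, with 7 of 8 epithelial, 6 of 6 endothelial and 6 of 6 mesenchymal markers above the median level of all genes in at least 1 group.

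Most of the myeloid genes gave a signal above the median of the series. In 29 of the 37 the mean of at least 1 group lay above 6.88, the median level of all genes. The same held for 9310 of all 18193 genes. Among the 29 were Csf1r, Pf4, Mrc1, Tyrobp, Ctss, Lgals3 and Lcp1. The other 8 were Spi1, Cd14, Cd68, Marco, Trem2, Itgam, Itgax and Aif1. Of these, Marco, Trem2, Itgam and Itgax read between 4.32 and 4.63 in every array, near the floor of the platform, so that their small differences say little. A dim probe set is no proof of an absent transcript, and levels of different probe sets cannot be ranked against each other. The plot of levels by array shows all 37.

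**Figure D1:**
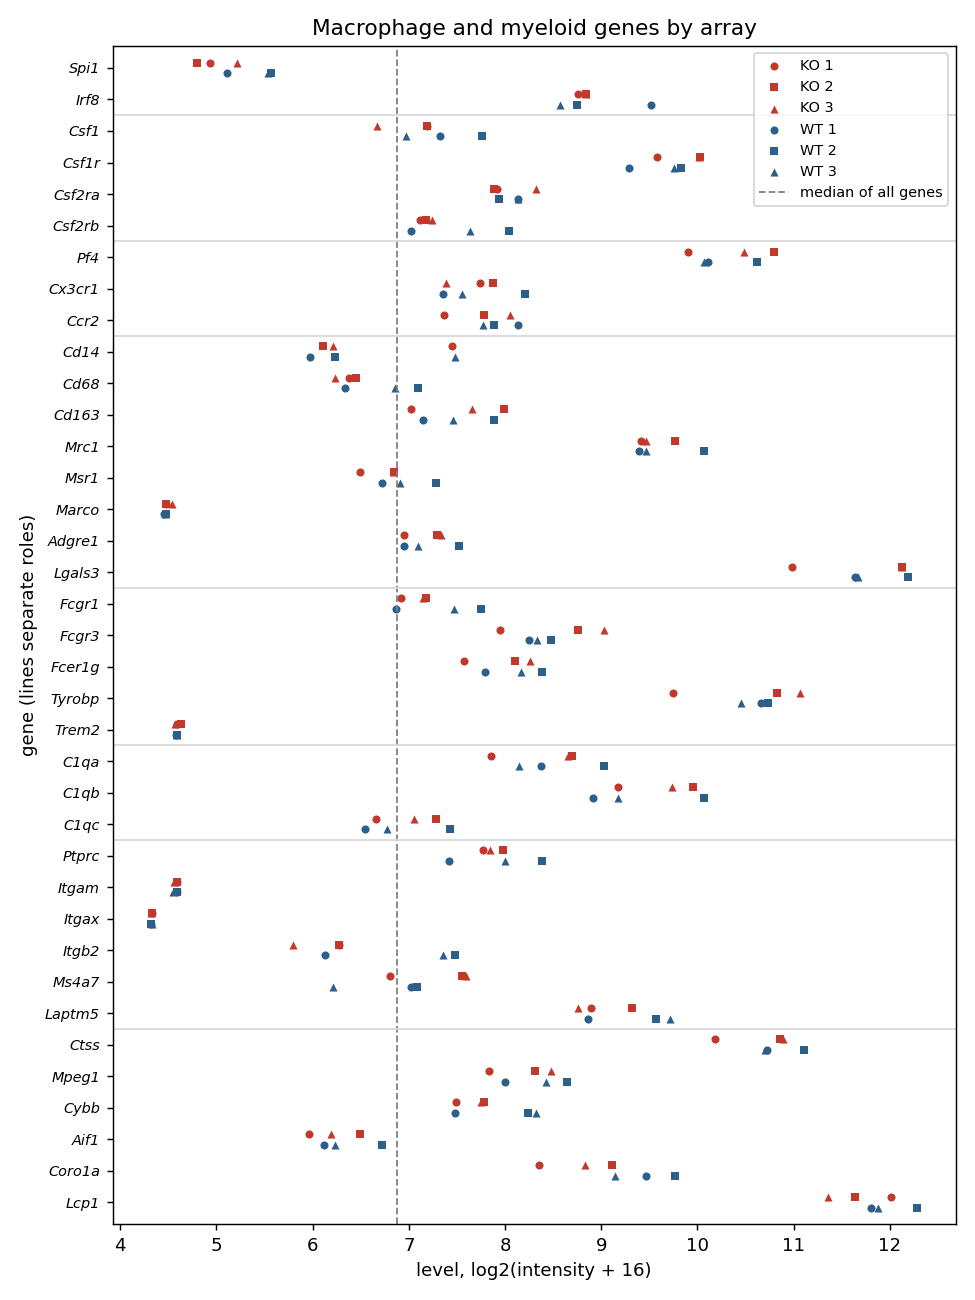
Level of each of the 37 genes (rows, grouped by role) in the 3 arrays labelled KO (red, upper points) and the 3 labelled WT (blue, lower points), as log2(intensity + 16). The dashed line is the median level of all genes, 6.88. The red and blue points of a gene interleave in 35 of 37 rows, the exceptions being Coro1a and, at the floor, Marco.

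Of the 37 genes, 0 had an adjusted p under 0.05 in limma, as against 0.0055% of all genes (1 of 18193). At an unadjusted p under 0.05, 2 members were lower in the KO-labelled arrays, Coro1a and Spi1, where 2.59% of all genes were lower at that level, and 0 were higher. In either direction this is 5.41% of the members, beside 4.58% of all genes. All KO arrays lay below all WT arrays in 1 member (3.81% of all genes) and above them in 1 (5.89% of all genes), which makes 2 members whose groups do not overlap, where 9.7% of all genes do not. The mean was lower in the KO-labelled arrays for 24 of 37 members, where 41.6% of all genes were lower, and higher for 13, where 58.4% were higher. Of the 29 members with at least 1 group mean above the median level, 21 were lower (72.4%). By the same rule 55.0% of 9310 genes were lower, so the background differs from that over all genes. Among the 27 members whose mean over all 6 arrays lay above the median level, 19 were lower and 8 higher.

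The median difference over the 37 members was -0.09, beside 0.003 over all genes. Over the 29 brighter members it was -0.11, beside -0.03 over all genes above the median level. Over all 37 it was -0.37, with 28 of 37 lower, when arrays were weighted by their quality, and -0.22 without WT 1. In all 37 members the difference between the labels was smaller than the wider of the ranges within a label, as it was in 96.3% of all genes. The 95% interval of the fit lay inside a doubling or halving, 2-fold either way, for 21 of the 29 brighter members, and inside 1.5-fold for 2 of them, Csf2ra and Adgre1. Differences of moderate size therefore could not be resolved for most members with 3 arrays a group. The 8 whose interval reached 2-fold were Csf1, Csf2rb, C1qb, Itgb2, Ms4a7, Laptm5, Cybb and Coro1a.

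**Figure D2:**
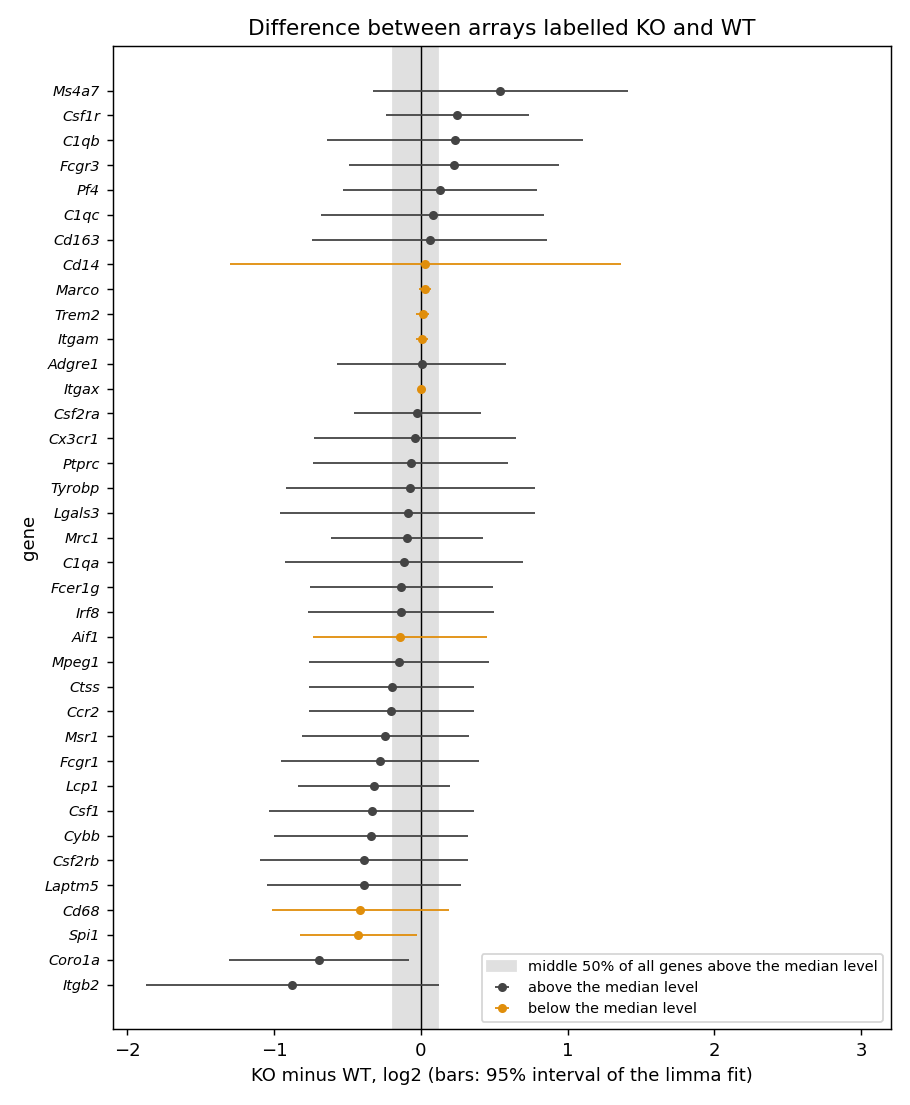
Difference between the arrays labelled KO and WT (log2, positive where KO is higher) for each of the 37 genes, with the 95% interval of the limma fit as bars. Grey marks the middle 50% of all genes above the median level, and orange marks members below that level. Most points lie between -0.43 and 0.25, with Itgb2 (-0.88), Coro1a (-0.69) and Ms4a7 (0.54) farthest out.

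The lineage regulators came first. Spi1, which encodes PU.1, read 4.93, 4.80 and 5.21 in KO 1 to 3 and 5.11, 5.57 and 5.54 in WT 1 to 3. KO 3 lay above WT 1, so the groups overlapped by that pair, and the level was low throughout. The difference was -0.43 (SE 0.16, adjusted p = 0.964 in limma), and it depends on the constant added before the logarithm, at -0.73 with 1 and -0.19 with 64. Irf8, the interferon regulatory factor of monocytes and dendritic cells, read 8.76, 8.84 and 8.84 in the KO-labelled arrays and 9.52, 8.75 and 8.57 in the WT-labelled ones. WT 1 stood above the other 5 arrays, and the difference of -0.13 (SE 0.26) turned to 0.15 without WT 1 and to 0.24 within station 2.

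PU.1 binds sites built around the core GAGGAA, and the promoters of several members are shown because its gene was 1 of the 2 members with an unadjusted p under 0.05. The 250 bases before the start, from RefSeq on GRCm38.p6, were at hand for 28 members, each on the gene's own strand and 5′ to 3′, with GAGGAA or its other-strand form TTCCTC in capitals.
C1qb: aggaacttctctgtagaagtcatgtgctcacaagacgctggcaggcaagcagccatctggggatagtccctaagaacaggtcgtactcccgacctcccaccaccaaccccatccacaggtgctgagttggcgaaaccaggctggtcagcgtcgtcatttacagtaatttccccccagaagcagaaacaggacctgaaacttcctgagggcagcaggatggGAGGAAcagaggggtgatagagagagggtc
C1qc: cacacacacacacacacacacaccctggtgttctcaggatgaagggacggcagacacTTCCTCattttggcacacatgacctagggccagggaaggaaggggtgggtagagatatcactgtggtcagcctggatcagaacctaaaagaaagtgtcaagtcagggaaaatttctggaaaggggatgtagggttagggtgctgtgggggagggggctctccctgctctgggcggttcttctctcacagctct
Ctss: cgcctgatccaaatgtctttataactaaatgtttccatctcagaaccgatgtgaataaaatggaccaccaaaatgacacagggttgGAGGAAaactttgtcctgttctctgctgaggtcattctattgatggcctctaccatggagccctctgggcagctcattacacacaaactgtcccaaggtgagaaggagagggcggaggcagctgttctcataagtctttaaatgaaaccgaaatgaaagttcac
Fcgr1: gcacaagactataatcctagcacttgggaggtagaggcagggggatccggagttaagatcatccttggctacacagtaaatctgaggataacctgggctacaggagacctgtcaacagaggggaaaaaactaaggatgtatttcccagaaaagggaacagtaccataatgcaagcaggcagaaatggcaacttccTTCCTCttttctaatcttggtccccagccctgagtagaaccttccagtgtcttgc
Coro1a: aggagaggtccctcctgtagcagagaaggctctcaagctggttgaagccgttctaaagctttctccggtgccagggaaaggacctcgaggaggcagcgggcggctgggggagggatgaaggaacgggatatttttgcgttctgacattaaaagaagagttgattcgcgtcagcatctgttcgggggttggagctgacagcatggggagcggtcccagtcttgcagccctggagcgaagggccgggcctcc
These windows are chr4:136886201-136886450 and chr4:136892915-136893164 for the C1q genes, chr3:95526536-95526785 for Ctss, chr3:96293970-96294219 for Fcgr1 and chr7:126704817-126705066 for Coro1a, all minus strand except Ctss. The core begins 30 bases before the start in C1qb, 193 in C1qc, 164 in Ctss and 55 in Fcgr1, and neither listed promoter of Coro1a holds it. It stood in at least 1 promoter of 15 of the 28 members (53.6%), beside 6986 of 27025 genes (25.9%) searched the same way. Its GGAA is shared by the sites of all ETS factors, and a match describes the letters and shows no binding.

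In the 4 member genes for a growth factor ligand and receptors, the difference was smaller than the wider range within a label. Csf1r, the receptor that keeps macrophages alive, read 9.58, 10.03 and 10.02 in KO 1 to 3 and 9.29, 9.83 and 9.76 in WT 1 to 3. The lowest array was WT 1 and the 2 highest were KO arrays, with a difference of 0.25 (SE 0.20, adjusted p = 0.964 in limma), and its dimmest probe set differed by -0.27. Csf1, the ligand, which stromal and epithelial cells also make, differed by -0.34 (SE 0.28), with 7.18, 7.19 and 6.67 in the KO-labelled arrays and 7.33, 7.76 and 6.97 in the WT-labelled ones. For the GM-CSF receptor, the alpha chain gene Csf2ra differed by -0.02 (SE 0.18) and the shared beta chain gene Csf2rb by -0.39 (SE 0.29). Csf2rb lay at 7.12 to 7.24 in all KO arrays, inside the wide WT range of 7.03 to 8.04. Csf2rb has a close copy, Csf2rb2, in mice, and 1 probe set that names both was not used.

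The 3 chemokine and chemokine receptor genes among the members followed the same pattern. The monocyte receptor gene Ccr2 read 7.36, 7.78 and 8.05 in KO 1 to 3 and 8.14, 7.88 and 7.77 in WT 1 to 3, a difference of -0.20 (SE 0.23). Cx3cr1, the fractalkine receptor of resident macrophages and patrolling monocytes, differed by -0.04 (SE 0.28). Pf4, a chemokine of platelets that fetal tissue macrophages also make, read 9.90, 10.80 and 10.49 in the KO-labelled arrays and 10.11, 10.61 and 10.07 in the WT-labelled ones (0.13, SE 0.27). The 8 measured markers of megakaryocytes and platelets all lay below the median level in both groups, with summed intensities of 141 to 267 in the KO-labelled arrays and 132 to 178 in the WT-labelled ones.

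Scavenger and pattern receptors split evenly, with 4 of 8 higher and 4 lower and none past the test. Mrc1, the mannose receptor, read 9.42, 9.76 and 9.46 in KO 1 to 3 and 9.39, 10.07 and 9.47 in WT 1 to 3 (-0.09, SE 0.21). Cd163, which takes up haemoglobin with haptoglobin, read 7.03, 7.99 and 7.66 under the KO label and, under the WT label, 7.15, 7.88 and 7.46 (0.06, SE 0.33). In both genes array number 2 was the highest of its group, and the groups overlapped throughout. Adgre1, which encodes the macrophage antigen F4/80, differed by 0.01 (SE 0.23), and Msr1, the scavenger receptor for modified lipoprotein, by -0.24 (SE 0.23). Cd68, of the lysosomal membrane, read 6.38, 6.45 and 6.23 in the KO-labelled arrays and 6.34, 7.10 and 6.85 in the WT-labelled ones (-0.41, SE 0.25), so that only WT 1 came down to the KO level.

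Lgals3, the galectin of macrophages and of airway epithelium, read 10.98, 12.13 and 12.13 in KO 1 to 3 and 11.64, 12.19 and 11.67 in WT 1 to 3. KO 1 was the lowest array by a wide margin, and the difference of -0.09 (SE 0.35) became 0.29 without it. Cd14, the co-receptor for lipopolysaccharide, was dim and split both groups, with 7.44 in KO 1 and 7.47 in WT 3 and between 5.97 and 6.23 in the other 4 arrays. Its difference was 0.03 (SE 0.54), the widest error of the 37. Marco, a scavenger receptor of mature alveolar macrophages, stayed at the floor, at 4.48 to 4.53 in the KO-labelled arrays and 4.46 to 4.47 in the WT-labelled ones.

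Of the 5 Fc receptor and ITAM genes, 2 had a higher mean in the KO-labelled arrays and 3 a lower one, and none passed. Tyrobp, the adaptor DAP12 that signals through an ITAM, read 9.75, 10.82 and 11.06 in KO 1 to 3, against 10.66, 10.74 and 10.45 in WT 1 to 3. KO 1 was the lowest and KO 3 the highest of all 6, with the WT arrays between them, and the difference was -0.07 (SE 0.35). Fcgr3, a low affinity receptor for immunoglobulin G, likewise had its lowest and highest arrays under the KO label, with 7.95, 8.76 and 9.03 in the KO-labelled arrays and 8.24, 8.48 and 8.33 in the WT-labelled ones (0.23, SE 0.29, and 0.54 without KO 1). Fcer1g, the common Fc receptor gamma chain, differed by -0.13 (SE 0.25), and Fcgr1, the high affinity receptor for immunoglobulin G, by -0.28 (SE 0.27). Trem2, a lipid receptor that signals through DAP12, read between 4.57 and 4.63 in every array.

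The 3 chains of C1q, which opens the classical complement pathway and is made mainly by macrophages, moved together from array to array and not with the label. C1qa read 7.86, 8.69 and 8.66 in KO 1 to 3 and 8.37, 9.03 and 8.14 in WT 1 to 3. C1qb read 9.17, 9.95 and 9.73 under the KO label and 8.91, 10.07 and 9.18 under the WT label. C1qc read 6.66, 7.28 and 7.05 in the KO-labelled arrays and 6.55, 7.43 and 6.77 in the WT-labelled ones. WT 2 was the highest array for each chain and KO 2 the second highest, and KO 1 or WT 1 the lowest. The differences were -0.11 (SE 0.33), 0.23 (SE 0.36) and 0.08 (SE 0.31), with an adjusted p of 0.964 in limma for each. For C1qb the other probe sets, 2 in number, differed by 0.30 and 0.12.

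Leukocyte integrins and surface proteins held the largest difference among the members. Itgb2, the beta chain CD18 of the leukocyte integrins, read 6.27, 6.27 and 5.79 in KO 1 to 3, against 6.13, 7.48 and 7.35 in WT 1 to 3. The WT arrays fell apart into a low WT 1, within the KO range, and a high pair. The difference of -0.88, or 1.83-fold lower in the KO-labelled arrays, had an SE of 0.41 and an adjusted p of 0.964 in limma, and it ran from -1.30 without WT 1 to -0.63 without WT 2. Station as a block gave -1.24 (SE 0.59), which is also the value within station 2, where WT 3 is the lone WT array. Its alpha chain partners Itgam and Itgax, which encode CD11b and CD11c, stayed at the floor in both groups.

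Ptprc, the pan-leukocyte phosphatase CD45, differed by -0.07 (SE 0.27), with 7.77 to 7.98 in the KO-labelled arrays, inside the WT range of 7.42 to 8.39. Laptm5, a lysosomal protein of blood cells, read 8.90, 9.32 and 8.76 under the KO label and 8.87, 9.57 and 9.71 under the WT label (-0.39, SE 0.27). Ms4a7, a tetraspan membrane protein of macrophages, had the largest positive difference, 0.54 (SE 0.35, adjusted p = 0.964 in limma). It read 6.80, 7.56 and 7.59 in KO 1 to 3 and 7.02, 7.09 and 6.21 in WT 1 to 3, and KO 1 lay below 2 of the WT arrays. Without WT 3 the difference was 0.26, and with station as a block it was 1.10 (SE 0.42).

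All 6 genes of effector function and the cytoskeleton had a lower mean in the KO-labelled arrays, with a median of -0.26, and none passed. Coro1a, the actin regulator coronin 1A of leukocytes, read 8.35, 9.11 and 8.83 in KO 1 to 3, against 9.46, 9.77 and 9.15 in WT 1 to 3. By the brightest probe set, it was the 1 member above the floor in which every KO array lay below every WT array. KO 2 and WT 3 were close to each other. The difference was -0.69 (SE 0.25), 1.62-fold lower, with an adjusted p of 0.964 in limma. Its second probe set differed by -0.60, with the groups again apart, and another, at the floor, by 0.02. Blocking on station reduced the difference to -0.38 (SE 0.33), a value that station 2 alone also gave.

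Lcp1, the actin bundling protein L-plastin of leukocytes, read 12.01, 11.64 and 11.35 in KO 1 to 3 and 11.80, 12.28 and 11.87 in WT 1 to 3 (-0.32, SE 0.21). KO 1 was the highest KO array here, and WT 2 the highest of all 6. Cybb, the catalytic subunit of the phagocyte NADPH oxidase, differed by -0.34 (SE 0.27), with WT 2 and WT 3 at 8.24 and 8.32 and all other arrays between 7.48 and 7.78. The lysosomal protease gene Ctss read 10.18, 10.86 and 10.89 in KO 1 to 3 and 10.72, 11.10 and 10.70 in WT 1 to 3 (-0.20, SE 0.23). Mpeg1, the pore-forming perforin-2, differed by -0.15 (SE 0.25), and Aif1, the calcium-binding protein IBA1, by -0.14 (SE 0.24).

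What the brighter members shared was an order of arrays that cut across the labels. WT 2 was the highest of the 6 arrays for 18 of 29 members (62.1%), beside 18.7% of all genes above the median level, and it was the lowest for 0. KO 1 was the lowest for 12 (41.4%, beside 14.2%) and the highest for 0, although it was the highest for 26.8% of all genes above the median level. WT 1 was the lowest for another 10 (34.5%, beside 20.1%). Measured as the median deviation from each gene's own mean, KO 1, KO 2 and KO 3 stood at -0.30, 0.10 and 0.13 and WT 1, WT 2 and WT 3 at -0.22, 0.39 and -0.06. Each label thus held 1 low array, and the highest array was a WT one. WT 2 exceeded KO 1 in 28 of the 29, all but Irf8, by a median of 0.75, beside -0.04 over all genes above the median level. This pair was picked as the highest and lowest arrays of these same members, so its gap only describes their range.

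**Figure D3:**
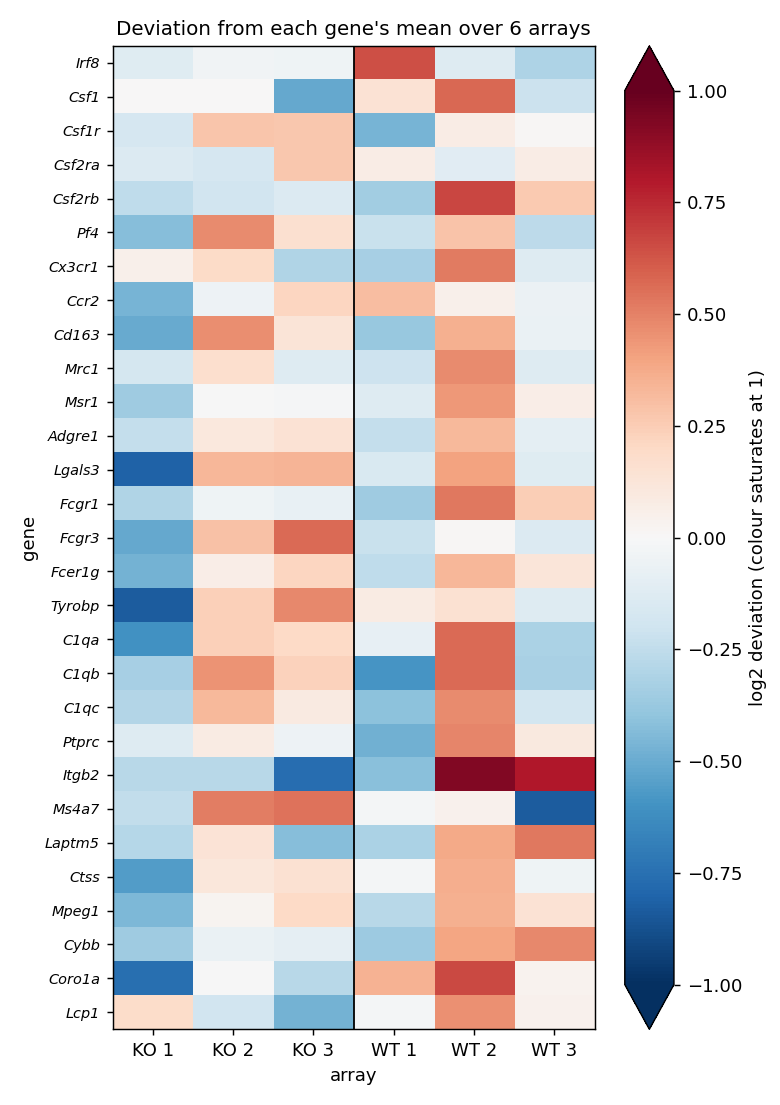
Deviation of each array from the gene's mean over 6 arrays (log2, red higher and blue lower) for the 29 members above the median level, with KO arrays left of the line and WT arrays right of it. The column of WT 2 is red for most genes and those of KO 1 and WT 1 are mostly blue, with Irf8, reddest in WT 1, among the exceptions.

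The median difference of the members changed when single arrays were left out. Over all 37 it was -0.09, it was 0.0005 without KO 1 and 0.001 without WT 2, and it was -0.20, -0.16, -0.22 and -0.15 without KO 2, KO 3, WT 1 and WT 3. Blocking on station, or taking station 2 alone, gave -0.002, with 19 members lower and 18 higher. The medians of 0.0005, 0.001 and -0.002 are each the difference of Itgax, which lay at the floor. They therefore do not give the size of the difference in the brighter members.

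Markers of other cell types moved with some of the same arrays. The 6 endothelial markers all had a lower mean in the KO-labelled arrays (median -0.67, none past the test), with Pecam1 at -0.81 (SE 0.40) and Cdh5 at -0.91 (SE 0.56), and their sum was 4542 to 6136 under the KO label and 4897 to 8651 under the WT label. Their median deviation was highest in WT 2 (0.69), as for the members, but was 0.14 in KO 1, where the members were low. Of 20 measured genes of leukocyte signalling, 14 were lower (median -0.20), Syk by -0.33 (SE 0.22) and Btk by 0.00 at the floor. Sftpc, a surfactant protein gene of type II cells, read 12.71 in KO 1 against 15.37 to 15.79 in the other 5 arrays. The epithelial list as a whole did not follow Sftpc, with a median deviation of 0.14 in KO 1 and 2 of 8 genes higher, and Nkx2-1, the lung epithelial regulator, differed by -0.36 (SE 0.44). All 6 mesenchymal markers had a lower mean (median -0.20), with Col1a1 at -0.17 (SE 0.27) and Col3a1 at -0.04 (SE 0.16). Lyz2, made by macrophages and by type II cells, read 12.42, 14.97 and 14.48 in KO 1 to 3 and 14.39, 14.69 and 13.44 in WT 1 to 3. Marker genes of liver and heart differed between arrays as well. The summed intensity of 5 liver markers was 161 to 1374 in the KO-labelled arrays and 44.2 to 556 in the WT-labelled ones. That of 6 heart markers was 2594 to 7297 and, under the WT label, 2947 to 5874. Apoa1 and Fgb of the liver list stayed near the floor, with group means of 4.54 and 4.47 (KO) and 4.51 and 4.51 (WT). Whether any of this signal came from neighbouring organs was not tested. KO 1 had the highest liver sum and the lowest heart sum. Alb differed by 1.57 (SE 1.20) and Afp by -0.61 (SE 0.89) among the liver genes, and Myl7 by 0.18 (SE 0.52) and Nppa by -0.01 (SE 0.02) among the heart genes. The part of these markers in the members' values was not tested.

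**Figure D4:**
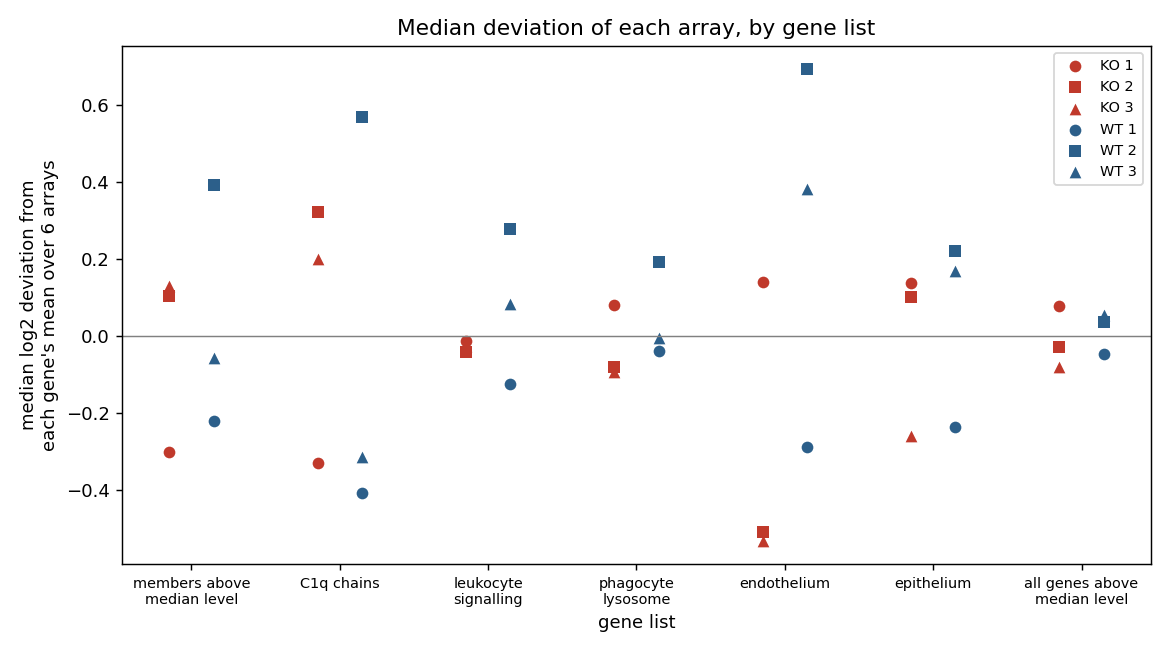
Median deviation of each array from each gene's mean (log2) for the brighter members and other gene lists, with the KO arrays (red) left of the WT arrays (blue) in each list. For the members KO 1 is lowest at -0.30 and WT 2 highest at 0.39, while the endothelial list puts KO 2 and KO 3 lowest and all genes above the median level stay within 0.1 of 0.

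Lymphocyte markers were mostly dim. The T and NK cell list had 1 of 12 measured genes above the median level and the B cell list 1 of 9, and Cd3e and Cd3d read between 4.29 and 4.35 in every array. Of the B cell genes, Cd79a stayed at the floor and Cd79b differed by 0.14 (SE 0.28). Mature alveolar macrophage markers were mostly dim too, 8 of 10, and 6 were higher and 4 lower. Siglecf read 4.52 to 4.59 in the KO-labelled arrays and 4.53 to 4.55 in the WT-labelled ones, and Pparg differed by -0.16 (SE 0.19). Of the 2 brighter markers, Car4 differed by -1.58 (SE 0.67), with the groups overlapping, and Plet1 by -0.06 (SE 0.30). Chil3, dim, differed by -0.82 (SE 0.34), with all KO arrays below all WT arrays, as in 3.81% of all genes. Of 15 measured markers of resident macrophages, 10 were higher and 5 lower, with a median of 0.002. That median is the difference of Timd4, which stayed at the floor, so it gives no size for the brighter markers. Only 8 of the 15 had a group mean above the median level. Among these, Lyve1, shared with lymphatic endothelium, differed by -0.96 (SE 0.29, adjusted p = 0.964 in limma). Stab1 (-0.61), Axl (-0.38) and Gas6 (-0.23) were also lower, and Apoe (0.36), Maf (0.31), Mertk (0.09) and Slco2b1 (0.02) were higher. Of 15 neutrophil genes, 7 were higher and 8 lower, and the 5 bright ones pointed both ways, with S100a8 at -0.26 (SE 0.39) and S100a9 at -0.16 (SE 0.29), and with Lcn2, chosen after its values were seen, at 1.54 (SE 0.33). In the list of genes tied to GATA6 in peritoneal macrophages of mice, 6 of 12 were higher and 6 lower, with a median of -0.01. Gata6 itself is counted among the 6 higher, and Aspa differed by -0.10 (SE 0.33). Only 5 of the 12 lay above the median level in at least 1 group, so the even split says little.

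Among genes that act upstream of the members, 12 of 18 measured myeloid transcription factors had a lower mean in the KO-labelled arrays (median -0.10), with Cebpa at -0.28 (SE 0.18) and Cebpb at -0.13 (SE 0.10), both C/EBP factors of myeloid and epithelial cells. Of 14 growth factors and receptors other than the members, 6 were higher and 8 lower. Csf2, the gene of GM-CSF, differed by -0.99 (SE 0.30, adjusted p = 0.964 in limma) at a level below the median, and Csf3, the gene of G-CSF, stayed at the floor. Of 12 phagocyte lysosome genes, 8 were lower (median -0.07), with the lysozyme genes Lyz2 at -0.22 (SE 0.72) and Lyz1 at -0.17 (SE 0.43). Lyz1 and Lyz2 are near copies of each other, so their probe sets may share signal.

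Most other lists had a median within 0.05 of 0, and many of their genes lay near the floor. Among monocyte markers 5 of 9 were higher, with Plac8 at 0.13 (SE 0.45) and Fn1 at -0.03 (SE 0.24). Of the dendritic cell and MHC class II list 12 of 14 were higher, most of them dim, with Flt3 at 0.01 (SE 0.01) and Zbtb46 at -0.31 (SE 0.32). Chemokine genes were higher in 11 of 16, but 12 of the 16 were dim, Ccl2 and Ccl3 among them. Of the 4 bright ones, 3 were lower, which were chosen after their values were seen. Cxcl15, of lung epithelium, differed by -0.64 (SE 0.21), with all KO arrays below all WT arrays, as in 3.81% of all genes. Ccl6 differed by -0.88 (SE 0.57) and Cxcl12 by -0.51 (SE 0.66). The summed intensity of the 16 was 14992 to 24301 in the KO-labelled arrays and 27107 to 28794 in the WT-labelled ones. That sum is mostly Cxcl15, with group means of 14.06 (KO) and 14.70 (WT). No other of the 16 had a group mean above that of Ccl6 in WT, 8.70. Complement genes outside C1q were higher in 6 of 10, with C2 at 0.32 (SE 0.31) and Cfb at 0.04 (SE 0.10), and genes of dead cell uptake in 4 of 9, with Pros1 at -0.05 (SE 0.10) and Tyro3 at 0.32 (SE 0.56). Toll-like receptor and interferon genes were higher in 9 of 14, with Tlr1 at 0.05 (SE 0.02), near the floor with all KO arrays above all WT arrays, and Tlr2 at -0.30 (SE 0.35). Mast cell genes were higher in 6 of 10, with Cpa3 at -0.69 (SE 0.68) and Tpsb2 at -0.28 (SE 0.38). Erythroid genes were higher in 3 of 9, with Hba-a1 at the floor and Hbb-bh1, dim, at -0.19 (SE 0.24). The 2 erythroid genes above the median level were Alas2 at -0.60 (SE 0.44) and Slc4a1 at -0.28 (SE 0.36). In the platelet list Ppbp differed by 0.49 (SE 0.35) and Itga2b by -0.12 (SE 0.09). No gene of any of the 24 lists passed an adjusted p of 0.05.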

How the data were processed

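Total RNA of E18.5 mouse lungs (5 µg per labelling) was hybridised to 6 Mouse430_2 arrays, 3 per label. The authors deposited 1 linear intensity per probe set, which the submitters' processing notes tie to GCRMA and MAS5 with no version, role or order. Their medians lay between 20.5 and 23.9 over probe sets other than controls, and the arrays were taken as normalised to each other, which no source states. The number of arrays limits precision. Fluidics station and scan order come from the deposited run records. Values were taken as log2(intensity + 16), with no dim filter and 1 probe set per gene, the highest mean of log2 values. Of 45101 probe sets, 34945 named a single gene, 932 more than 1 and 9160 none in the tables used here, and 64 were controls. Symbols follow GRCm38.p6. The fit was limma 3.58.1 in R 4.3.3 (lmFit, eBayes with trend, two-sided). It was also run on simulated data with independent noise for each gene. That run cannot show how the fit behaves where arrays differ as a whole, as they do here. All members are named, and of each of the 24 other lists its genes past the threshold or else its first 2 measured genes; any further gene was chosen after its values were seen. The members and lists were chosen with earlier results of these data known. Residuals of equally numbered arrays correlated at -0.613, 0.0971 and -0.311, so numbers were not taken as pairs. Alternatives covered eBayes settings, weights, scaling, filter, probe set, pseudocount, single arrays, station, replicate block and RNA composition. The last is the median log2 level of brighter probe sets without a gene name, minus that of brighter probe sets naming 1 gene. It was -1.67, -0.86 and -0.32 in KO 1 to 3 and -0.56, -1.68 and -1.57 in WT 1 to 3. KO 2, KO 3 and WT 1 had the higher values, the same split as on the first principal component.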

Additional observations from a re-analysis of the deposited data

How the results depend on the processing

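No member passed an adjusted p of 0.05 in limma in the main setting or in 22 of 23 alternatives. The exception, chosen after seeing the data, was the fit on KO 2, KO 3 and WT 1 alone, where 2 members passed, C1qb (0.93, adjusted p = 0.00135) and Csf1r (0.73, adjusted p = 0.017), along with 824 genes in all. It rests on 1 WT array, assumed to vary like the KO pair, and since WT 1 and KO 1 are the arrays low in the members, this split sets the opposite signs of the sets in advance. The median difference of the members was 0.22 there, -0.45 among KO 1, WT 2 and WT 3 (65 genes passing) and -0.37 with array quality weights, against -0.09. Leaving out 1 array gave medians from -0.22 to 0.001, the latter being the difference of Itgax at the floor, and 0 to 1 genes passing. Over all genes, 17 passed with median centring, 32 with station as a block and 10 within station 2, against 1 in the main setting. With eBayes without trend, quantile normalisation, the RNA composition covariate or the component sets as a block, 0 passed, while 5.00%, 5.08%, 7.36% and 8.16% of genes were below 0.05 before adjustment. The component sets as a block gave a member median of -0.154, and the RNA composition covariate gave -0.156. With the replicate block 0 genes and 0 members passed, 3.33% of genes were below 0.05 before adjustment, and the member median stayed at -0.093. Of 841 member differences under the alternatives, 101 had the other sign, in 30 of the 37 genes, and in 21 of them leaving out a single array was enough. Of the 31 further probe sets of members, 19 had the sign of the brightest, and 5 of 6 among the brighter ones.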

Other observations

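Some genes near the myeloid programme, most of them chosen after their values were seen, are given here as values, and none passed in limma. Genes of antigen presentation by MHC class II had higher means in the KO-labelled arrays. H2-Aa read 8.34, 7.72 and 7.91 in KO 1 to 3 and 5.29, 7.27 and 6.42 in WT 1 to 3 (1.66, SE 0.52), and its chaperone gene Cd74 differed by 1.10 (SE 0.73). Lcn2, an iron-binding defence protein of neutrophils and airway epithelium, read 11.56, 12.63 and 12.28 under the KO label and 10.17, 10.98 and 10.71 under the WT label (1.54, SE 0.33, adjusted p = 0.832). Cd36, a fatty acid and scavenger receptor of macrophages and capillaries, differed by 0.82 (SE 0.12, adjusted p = 0.5), with every KO array above every WT array.

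Csf2, which encodes GM-CSF, was dim but apart between the labels, at 5.01, 5.52 and 4.75 in KO 1 to 3 and 5.91, 6.61 and 5.74 in WT 1 to 3 (-0.99, SE 0.30). The apolipoprotein gene Apoe differed by 0.36 (SE 0.14), with all KO arrays above all WT arrays, and Tgfb1 by -0.76 (SE 0.29), with all KO arrays below. Over all 18193 genes, all KO arrays lay above all WT arrays in 5.89% and below them in 3.81%.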
